A study of Mus musculus with 24 samples.

Results

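The motifs of 6 promoter-type factors, NRF1, E2F1, ETS, NFY, N-MYC and CREB, were followed for their effect on DNA methylation of an inserted bacterial fragment. They were taken by name from the pooled methylation tables, each with its wild-type (WT) and its scrambled (Sc) version, which gave 12 of the 62 constructs, or 6 of the 26 motif pairs that could be tested in every pool. In this assay, Hi-TransMet, each motif sits in the middle of FR1, a bacterial DNA fragment of intermediate CpG content, and a library of such plasmids, mixed in equal amounts, was exchanged by recombinase-mediated cassette exchange into 1 site of the β-globin locus of mouse embryonic stem cells (ESCs). The plasmids were either methylated in vitro with the CpG methyltransferase M.SssI before transfection (+SssI) or left untreated (−SssI). The cells that survived ganciclovir selection were collected together as a pool.

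There were 5 pools. ESC −SssI and ESC +SssI were wild-type ESCs of strain C57BL/6 X 129S5, and NP −SssI and NP +SssI were neuronal progenitors differentiated in vitro from those cells by aggregation with retinoic acid. TET TKO +SssI was ESCs of strain C57BL/6 X 129/sv that lack TET1, TET2 and TET3, the enzymes that oxidise methylated cytosine, and received the premethylated library, so that genotype and strain cannot be told apart. Every pool was analysed by bisulfite amplicon sequencing. The constructs were transfected as a mixed library, so those of a pool are not independent of each other. The paper states that it pooled biological and technical replicates to gain coverage. RNA-seq was available for the same 3 cell types, with 3 libraries each.

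These motifs belong to factors that bind many active, CpG-rich promoters. NRF1 controls nuclear genes for mitochondrial and cell growth functions, E2F1 controls entry into DNA synthesis, ETS proteins such as GABPA and ETS1 form a large family with a shared core site, NFY is a trimer that binds the CCAAT box, N-MYC binds the E-box as a dimer with MAX, and CREB binds the cAMP response element. Binding of NRF1, E2F1, MYC and CREB proteins to their sites is known to be hindered when the CpG within the site is methylated, and NFY, whose core site has no CpG, serves as a contrast.

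Each fragment was read at 18 CpGs upstream of the motif, from position −291 to −32, and at 5 CpGs downstream, from 37 to 252, in bp from the 5′ end of the motif, plus the CpGs of the motif itself. The NRF1 and E2F1 pairs had 2 such motif CpGs (m1 and m2), the ETS, N-MYC and CREB pairs had 1, and the NFY pair had 0, which gave 145 CpGs for the 6 pairs out of 616 for all 26. In the Sc fragments the motif CpGs stand in another sequence context. The measure was Δmet, the percentage of methylated reads in the WT fragment minus that in its Sc partner, in percentage points, so that a negative value means less methylation with the intact motif. A CpG was called lower or higher when Δmet reached 10 points in that direction and a two-sided Fisher's exact test on the reads, adjusted over the 616 CpGs of the pool, gave an adjusted p under 0.05. At least 3 consecutive CpGs called lower over more than 50 bp made a hypomethylated region (HMR). For each fragment the CpGs with the most negative and the most positive Δmet are named. The upstream and downstream sides were amplified separately, so they come from different molecules.

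The reads behind a member CpG ranged from 21 to 1751 in ESC −SssI, 43 to 912 in ESC +SssI, 11 to 1459 in NP −SssI, 49 to 3190 in NP +SssI and 18 to 615 in TET TKO +SssI. Averaged over the 26 Sc fragments, methylation was 57.3% ± 17.5 (SD over fragments) in ESC −SssI, 67.8% ± 10.8 in ESC +SssI, 89.8% ± 3.58 in NP −SssI, 86.5% ± 6.56 in NP +SssI and 88.6% ± 7.92 in TET TKO +SssI. The reads of a pool came from 3 to 9 runs. The labels do not say whether these are separate transfections, separate cultures or repeated sequencing. By read numbers per construct, runs 1, 2 and 5 of ESC −SssI could not be told apart. The same held for runs 2, 9 and 10 of NP −SssI and for runs 2 and 9 of NP +SssI. Runs of such a set are not taken as independent. The runs of ESC −SssI stood apart, since the Sc fragments averaged 78.4%, 78.1% and 77.6% in runs 1, 2 and 5 but 37.1% in run 4. Runs 3, 6, 7 and 12 gave 39.7%, 49.2%, 68.2% and 63.5%, over only 5, 6, 3 and 1 Sc fragments. A WT fragment and its Sc partner often drew their reads from different runs. Δmet was therefore also computed within runs, combined over the runs with at least 10 reads of both fragments at a CpG, and is given beside many of the summed values. A run is described below as holding a fragment only at CpGs with at least 10 of its reads. All intervals are 95% intervals, take the CpGs of a fragment as 1 measurement, and cover counting error only. All tests compare pooled libraries and not independent cultures.

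Over the 6 pairs, CpGs moved in both directions in every pool, and calls were frequent among all motifs too. In ESC −SssI, 61 of the 145 CpGs were lower, against 48.4% of all CpGs tested, and 48 were higher, against 23.7%. In ESC +SssI, 50 were lower (all motifs 50.2%) and 33 higher (12.2%). In NP −SssI, 29 were lower (31.3%) and 27 higher (13.5%), and in NP +SssI 28 were lower (36.2%) and 24 higher (10.4%). In TET TKO +SssI, 38 were lower (21.3%) and 27 higher (22.9%). The share called lower was thus under the share among all CpGs in both ESC and both NP pools, and above it in TET TKO +SssI.

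An HMR was present for 3 of the 6 motifs in ESC −SssI (NRF1, ETS and CREB), where 53.8% of the 26 motifs had one. The count was 3 of 6 in ESC +SssI (E2F1, ETS and N-MYC, all motifs 57.7%), 1 in NP −SssI (CREB; 34.6%), 2 in NP +SssI (NFY and CREB; 46.2%) and 2 in TET TKO +SssI (E2F1 and ETS; 26.9%). The median Δmet of the 6 fragments was −2.46 points in ESC −SssI and −5.86 in ESC +SssI, beside −12.1 and −12.2 for all 26. No motif of the 6 had an HMR in every pool, and all 6 had one in at least 1 pool.

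By summed reads, NRF1 had the lowest Δmet of the 6 in ESCs that received the untreated library. Within runs E2F1 stood lower there, at −27.5 points beside −19.9 for NRF1. In ESCs that received the premethylated library the NRF1 Δmet was near 0. In ESC −SssI the WT fragment was 31.5% methylated and the Sc fragment 75.5%, a Δmet of −44.0 points (±9.24, median 113 and 590 reads), and 23 of its 25 CpGs were lower and 0 higher. One HMR ran from −291 to −235 (5 CpGs, mean −45.9 points), another from −208 to 46 (16 CpGs over 254 bp, mean −47.5 points), and the second spans the motif. The most negative CpG of the fragment lay at 46, at 8.33% of 36 reads with WT and 94.1% of 34 reads with Sc (Δmet −85.8, adjusted p = 2.19e-13). The least changed lay at −211, between the HMRs, at 35.1% with WT and 40.8% with Sc (Δmet −5.76, adjusted p = 0.337).

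The NRF1 difference was smaller where the runs were matched. In run 4 the WT fragment was 20.9% methylated and the Sc fragment 42.1%, a Δmet of −21.2 points, while in run 5 they were 77.2% and 84.2%, a Δmet of −6.97 over 20 CpGs. Sc reads also came from run 1, at 84.2%, and run 2, at 86.5%, where the WT fragment had too few reads. Within runs Δmet was −19.9 points (±11.6), with 15 CpGs lower and 0 higher and no HMR, and without run 4 the value was −3.55. WT was thus below Sc in both runs, by less than over the summed reads.

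With the premethylated library, NRF1 WT and Sc fragments in ESCs were 72.5% and 73.5% methylated, and Δmet was −1.07 (±10.7) at a median of 606 and 73 reads. Of its CpGs, 3 were lower and 5 higher. The CpG at 46, which was lowest relative to Sc without premethylation, was here 81.9% with WT and 37.3% with Sc (Δmet 44.6, adjusted p = 6.43e-12). At −208 the fragment had 40.6% with WT and 74.0% with Sc (Δmet −33.4, adjusted p = 2.06e-07). The Δmet of the fragment differed between the ESC pools by 43.0 points (±14.2, adjusted p = 3.57e-08, Wald test over 26 motifs), and by 18.8 within runs (adjusted p = 0.0391). By summed reads the WT fragment was 40.9 points higher with premethylation, and the Sc fragment differed by −2.00. These levels mix runs, since most WT reads of ESC −SssI came from run 4 and most Sc reads from other runs. In run 4 of ESC −SssI the Sc fragment was 42.1% methylated, beside 73.5% in ESC +SssI.

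In NPs the NRF1 fragments were near the general level. They stood at 93.1% with WT and 90.1% with Sc in NP −SssI (Δmet 3.04, ±5.49), and at 86.0% and 86.4% in NP +SssI (Δmet −0.465, ±5.96). NP −SssI differed from ESC −SssI by 47.1 points (±10.8, adjusted p = 2.46e-16), and by 24.0 within runs (adjusted p = 0.00223). In NP +SssI no run had at least 10 reads of both fragments, and Sc came almost wholly from run 7 (median 233 reads, 86.4%). Without run 7 Δmet was 22.98 points. No other run reached 10 Sc reads at any CpG, so that value rests on few Sc reads and few CpGs. The downstream side of that pool was 69.7% with WT and 83.1% with Sc, and the gap was widest at 252 with 57.0% and 92.9% (adjusted p = 2.28e-38). The TET TKO +SssI fragments were 93.5% and 94.99% methylated (Δmet −1.45, ±6.04), and the difference from ESC +SssI was −0.380 points (±12.3, adjusted p = 0.952).

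E2F1 was lower with WT in both ESC pools by the summed reads, and the 2 pools changed places when runs were matched. The ESC −SssI fragments were 56.9% methylated with WT and 68.7% with Sc (Δmet −11.7, ±10.5, median 230 and 120 reads), and 12 CpGs were lower and 3 higher with no HMR. Its most negative CpG was at −187 with 58.3% against 100% of 120 reads (adjusted p = 2.89e-21), and its most positive at −84 with 95.7% against 45.8% (adjusted p = 8.94e-26). The runs differed widely. WT and Sc stood at 63.6% and 92.0% in run 1 (Δmet −28.5), and in run 5 Δmet was −25.9 over the 20 shared CpGs. Run 3 reached 10 reads for Sc only, at 5.18% methylated (median 28 reads), and run 4 for WT only, at 39.1%. Within runs Δmet was −27.5 points (±8.32, 20 CpGs), 16 CpGs were lower and 2 higher, and an HMR of 6 CpGs from −148 to −88 averaged −42.0 points. Runs 1 and 5, the only ones that held both fragments, could not be told apart by their read numbers per construct. They are not taken as independent, though the within-run value, its interval and its HMR count both.

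With premethylation in ESCs, the E2F1 fragments were 52.3% methylated with WT and 75.9% with Sc (Δmet −23.6, ±8.14, median 197 and 398 reads), with 20 of 25 CpGs lower and 0 higher. HMRs ran from −275 to −211 (5 CpGs, mean −27.9 points), from −166 to −32 (9 CpGs over 134 bp, mean −28.2) and from the second motif CpG to 151 (5 CpGs, mean −28.6). The lowest Δmet was at −264, with 35.0% against 83.5% (adjusted p = 6.73e-31). The low WT reads came from run 4, where WT was 27.3% methylated over 25 CpGs and Sc reached 10 reads at 7 CpGs only, with a Δmet of −50.7 there. In run 5, which held both, WT and Sc were 76.9% and 75.4% (Δmet 1.46). Within runs Δmet was −4.31 points (±8.04), 6 CpGs were lower and 5 higher, and no HMR was left.

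In NPs the E2F1 fragments were mostly methylated. NP −SssI gave 85.5% with WT and 91.2% with Sc (Δmet −5.70, ±8.25) with no run that had 10 reads of both, and NP +SssI gave 85.7% and 83.2% (Δmet 2.49, ±5.43). One run departed from this. In run 1 of NP +SssI the WT fragment was 31.9% methylated (median 62 reads) beside 84.3% for Sc (median 80 reads), while runs 2, 9 and 10 held WT at 90.1%, 90.5% and 86.8%. The within-run Δmet of NP +SssI was accordingly −51.6 points (±9.19) with an HMR of 19 CpGs from −291 to the first motif CpG (mean −68.4 points), against 0 CpGs lower by the summed reads. The comparison of NP +SssI with ESC +SssI turned sign with it, from 26.1 points (±9.78, adjusted p = 1.48e-06) by summed reads to −47.3 within runs (adjusted p = 1.84e-13). The comparison of the ESC pools turned too, from −11.9 points (±13.3, adjusted p = 0.129) to 26.9 within runs (adjusted p = 2.40e-05). The ESC −SssI side of that within-run value rests on runs 1 and 5, which are not taken as independent.

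E2F1 WT and Sc fragments of TET TKO +SssI were 90.4% and 96.6% methylated (Δmet −6.16, ±6.67, within runs −6.25, ±5.74), and 12 CpGs, all upstream, were lower. Short HMRs lay at −264 to −211 (4 CpGs, mean −18.2 points) and at −178 to −121 (4 CpGs, mean −13.4 points), both also present within runs. The lowest Δmet was at −211 with 66.3% of 104 reads against 99.0% of 100 reads (adjusted p = 5.43e-10). Relative to ESC +SssI, Δmet was higher by 17.5 points (±10.5, adjusted p = 0.00250), but it differed by −1.94 within runs (adjusted p = 0.730).

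ETS had a short HMR next to its motif in ESC −SssI and its widest one in the TET-deficient cells. In ESC −SssI both fragments were low, at 33.4% with WT and 34.3% with Sc (Δmet −0.925, ±14.9, median 83 and 72 reads), with 10 CpGs lower and 7 higher. The runs did not point the same way. In run 4 WT was 30.4% and Sc 26.6% (Δmet 3.78), and in run 5 they were 37.3% and 63.2% (Δmet −25.9 over 19 CpGs, median 12 reads each). The within-run Δmet was 0.220 points (±13.97), without run 4 it was −26.4, and against the mean of all Sc fragments it was −34.6. The lower CpGs included an HMR from −84 to the motif CpG (3 CpGs over 85 bp, mean −35.0 points, within runs −38.6). At −32, the CpG nearest to the motif upstream, 0 of 82 WT reads were methylated beside 46.6% of 73 Sc reads (adjusted p = 1.14e-13), a count of 0 that allows a share of up to 3.66%. At 252 the order was the other way, with 90.5% for WT and 48.2% for Sc (adjusted p = 0.001003).

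The ETS fragments of ESC +SssI were 62.8% methylated with WT and 73.4% with Sc (Δmet −10.6, ±11.2). The upstream side was lower with WT, at 60.0% against 77.3%, with an HMR from −291 to −235 (5 CpGs, mean −27.5 points), whereas the downstream side was higher, at 69.9% against 55.2%. Runs again disagreed, since WT was 47.3% methylated in run 4, and in run 5 it was 84.2% beside 72.9% for Sc. Within runs Δmet was 4.003 points (±10.1) and no HMR was present.

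In both NP pools the Δmet of ETS was above 0. NP −SssI gave 85.7% with WT and 78.8% with Sc (Δmet 6.84, ±7.81). Δmet was 15.3, 8.09 and 12.8 points in runs 2, 9 and 10. These runs could not be told apart by their read numbers per construct, so they are not taken as independent. Their Δmet values were not compared by a test. NP +SssI gave 90.6% and 80.7% (Δmet 9.95, ±4.62, within runs 16.6, ±5.43), with 12 CpGs higher and 1 lower. The largest rise there was at 46, at 91.3% of 2749 reads with WT and 52.4% of 978 reads with Sc (adjusted p = 6.26e-139). Δmet was 20.6 points higher than in ESC +SssI (±12.1, adjusted p = 0.00275), and 12.6 points within runs (adjusted p = 0.0617).

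The ETS WT fragment of TET TKO +SssI was 68.0% methylated and its Sc partner 95.4%, the lowest Δmet of all 26 motifs in this pool at −27.4 points (±10.1, median 110 and 65 reads, within runs −27.1, ±8.63). An HMR of 15 CpGs ran from −264 to −84 (180 bp, mean −39.3 points), with the lowest Δmet at −187, where WT was 48.2% and Sc 100% (adjusted p = 4.59e-14). The downstream side stood at 95.7% with WT and 99.1% with Sc. Nearly all upstream reads were from run 10, where WT and Sc were 67.9% and 95.4%, and runs 9 and 11 reached 10 reads at the motif and downstream CpGs only. Without run 10 Δmet was −4.86 points. The difference from ESC +SssI was −16.8 points (±15.1, adjusted p = 0.0505) by summed reads and −31.1 within runs (adjusted p = 1.81e-05).

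NFY, the motif without a CpG, ranked 25 from the lowest of the 26 motifs by Δmet in ESC −SssI. WT and Sc fragments were 67.5% and 29.6% methylated (Δmet 37.9, ±16.3, median 347 and 33 reads), and 18 CpGs were higher and 3 lower. The sides were opposed, since upstream WT was 80.2% and Sc 22.8%, and downstream WT was 22.0% and Sc 54.0%. The extremes were −166, with 93.4% against 6.25% (adjusted p = 5.19e-27), and 37, with 4.17% against 64.1% (adjusted p = 2.88e-11). WT reads came largely from runs in which Sc did not reach 10 reads. Runs 1 and 5 held WT at 85.0% and 84.5%, and in run 4, which held both at a median of 31 reads each, WT was 29.8% and Sc 25.97%. Within runs Δmet was 3.79 points (±19.5).

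In the other pools NFY fragments stayed close to their Sc partners. They were 70.7% with WT and 71.3% with Sc in ESC +SssI (Δmet −0.595, ±8.43), but the downstream side was lower with WT, at 61.4% against 79.2%. Within runs this became an HMR over all 5 downstream CpGs, from 37 to 252 (mean −25.2 points), with Δmet −9.39 (±9.52) for the fragment. NP −SssI gave 93.6% and 87.6% (Δmet 6.00, ±7.15), and NP +SssI gave 89.1% and 93.5% (Δmet −4.42, ±5.50) with an HMR of 3 CpGs from −32 to 46 (mean −14.5 points) that was absent within runs. In NP −SssI a single CpG stood out, at −211 with 84.0% for WT and 11.8% for Sc (adjusted p = 2.10e-34). TET TKO +SssI gave 96.4% and 93.2% (Δmet 3.20, ±7.46). The ESC pools differed in NFY Δmet by −38.5 points (±18.4, adjusted p = 1.18e-04) by summed reads and by −13.2 within runs (adjusted p = 0.351), and NP −SssI differed from ESC −SssI by −31.9 points (±17.8, adjusted p = 0.00119) and by 1.43 (adjusted p = 0.931).

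N-MYC had a more methylated WT fragment in ESC −SssI and in TET TKO +SssI. In ESC −SssI it was 79.5% with WT and 44.1% with Sc (Δmet 35.5, ±13.2, median 89 and 92 reads), with 18 CpGs higher and 3 lower, and the upstream side gave 89.3% against 40.9%. The direction held in both runs that carried the pair, with 82.8% and 60.5% in run 1 and 82.1% and 34.3% in run 6, and the within-run Δmet was 34.6 (±12.3). The extremes were −208, with 97.7% against 11.6% (adjusted p = 3.91e-34), and −166, with 4.49% against 38.9% (adjusted p = 2.54e-08). The Sc fragment of N-MYC averaged less than the Sc fragments together, and against the mean of all Sc fragments Δmet was 13.0 points.

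The order turned in ESC +SssI. The N-MYC fragments were 33.5% methylated with WT and 46.0% with Sc (Δmet −12.5, ±16.7, median 48 and 96 reads), with an HMR of 4 CpGs from −88 to the motif CpG (mean −32.9 points). At −101 WT was 8.33% and Sc 72.9% (adjusted p = 1.33e-13), and at 46 WT was 75.0% and Sc 30.6% (adjusted p = 2.35e-05). Nearly all WT reads were from run 4, where WT and Sc were 33.5% and 34.5%, so that Δmet was −0.946 within runs (±17.2) and no HMR was present. The ESC pools differed by −48.0 points (±21.2, adjusted p = 3.05e-05), and by −35.5 within runs (adjusted p = 0.00340).

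In NPs N-MYC was measured unevenly. NP −SssI had a median of 12 WT reads beside 906 for Sc, with 76.1% and 88.0% methylated (Δmet −11.9, ±24.2), an interval that spans 0. With at least 20 reads of each fragment required the value was −40.9, but this left only the motif CpG and the downstream CpGs. The upstream side, dropped by that limit, had a Δmet of −2.21. Its lowest CpG was at 252, with 11.1% of 27 reads against 96.3% of 541 reads (adjusted p = 3.50e-26). NP −SssI differed from ESC −SssI by −47.3 points (±27.6, adjusted p = 0.00179, within runs −45.0, adjusted p = 0.00163). NP +SssI was deeper, with 88.6% for WT and 86.9% for Sc (Δmet 1.71, ±4.17, median 455 and 496 reads), but no run had 10 reads of both, and without run 7, which held most Sc reads, Δmet was 12.7.

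In TET TKO +SssI the N-MYC fragments were 96.5% methylated with WT and 73.8% with Sc, the highest Δmet of the 26 motifs in this pool at 22.8 points (±7.58, within runs 22.8), with 17 CpGs higher and 0 lower. The difference lay in a partly methylated Sc fragment upstream, at 66.8% beside 95.8% for WT, and was largest at −208 with 99.1% against 51.2% (adjusted p = 7.24e-19). It came from run 10, where WT and Sc were 96.4% and 73.2%, and runs 9 and 11, without upstream reads, gave −0.965 and 4.43 points. Relative to ESC +SssI, Δmet was 35.3 points higher (±18.3, adjusted p = 4.33e-04, within runs 23.7, adjusted p = 0.0236).

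CREB had its lowest values in NP +SssI. In ESC −SssI the fragments were deeply covered, at 50.2% with WT and 54.2% with Sc (Δmet −3.99, ±4.99, median 1092 and 591 reads), with 10 CpGs lower and 2 higher and an HMR of 4 CpGs from −90 to −32 (mean −14.7 points). In all 4 runs that held both fragments, WT was higher, by 5.33, 6.63, 11.6 and 5.46 points in runs 1, 2, 4 and 5. Of these, runs 1, 2 and 5 could not be told apart by their read numbers per construct. They are not taken as independent, though the within-run value counts each of them. WT reads of run 7, where Sc did not reach 10 reads, were 40.4% methylated. Within runs Δmet was 6.74 (±5.21, 19 CpGs) and no HMR was present, so that the sign of the summed value rested on run 7.

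In ESC +SssI the CREB WT fragment was 63.7% methylated and the Sc fragment 42.3%, the highest Δmet of the 26 motifs in this pool at 21.4 points (±12.1, within runs 15.7, ±12.5). The Sc fragment was also the least methylated of the 26 Sc fragments, and against the mean of all of them Δmet was −4.23. At −88 WT was 77.9% and Sc 24.7% (adjusted p = 3.83e-17), and at 252 WT was 65.7% and Sc 96.3% (adjusted p = 1.36e-08). The ESC pools differed by 25.4 points (±13.1, adjusted p = 3.70e-04), and by 13.9 within runs (adjusted p = 0.0916).

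In NP −SssI, CREB fragments were 88.5% with WT and 90.8% with Sc (Δmet −2.36, ±2.91, median 1160.5 and 629 reads), and an HMR of 4 downstream CpGs from 46 to 252 averaged −18.3 points (within runs −15.9). In NP +SssI they were 66.6% and 87.4% (Δmet −20.8, ±13.8, median 51 and 186.5 reads, within runs −23.6, ±11.8), with 15 CpGs lower and 0 higher. One HMR ran from −208 to −121 (6 CpGs, mean −37.8 points, within runs −50.3) and another from 37 to 109 (3 CpGs, mean −31.7 points) that was absent within runs. At −148 WT was 24.0% of 50 reads and Sc 85.6% of 188 reads (adjusted p = 1.07e-15). WT was lower in every run that held both fragments. Δmet was −36.7 points in run 2, −20.9 in run 9, −10.3 in run 6 and −3.32 in run 10, the last over 6 CpGs only. Runs 2 and 9 could not be told apart by their read numbers per construct, so these runs are not taken as independent.

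The CREB Δmet was lower with premethylation in NPs, with a difference of −18.4 points between the NP pools (±14.1, adjusted p = 0.0302, within runs −20.5, adjusted p = 0.00266). NP +SssI differed from ESC +SssI by −42.2 points (±18.4, adjusted p = 3.43e-05, within runs −39.4, adjusted p = 3.00e-05), with 19 CpGs differing in that direction and 0 in the other. The Sc fragments were 45.0 points higher in NP +SssI than in ESC +SssI, and the WT fragments 2.83 points higher. For TET TKO +SssI only a median of 18 WT reads was available, with 90.3% for WT and 93.2% for Sc (Δmet −2.82, ±14.6). There the CpG at −211 was 11.1% of 18 reads with WT and 98.9% of 94 reads with Sc (adjusted p = 9.71e-15). The difference from ESC +SssI was −24.2 points (±18.9, adjusted p = 0.0226, within runs −18.6, adjusted p = 0.0541).

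The CpGs inside the motifs, where methylation would touch the binding site, were read in both amplicons. In ESC −SssI, 6 of the 7 were lower with WT, where 61.1% of all 18 motif CpGs were, and 0 were higher (16.7%). They were NRF1 m1, at 27.3% with WT and 72.6% with Sc, NRF1 m2, at 60.0% and 77.0%, E2F1 m1, at 55.7% and 71.3%, and E2F1 m2, at 39.8% and 73.2%. ETS m1 stood at 13.5% and 55.0%, and N-MYC m1 at 25.4% of 130 reads and 50% of 156 reads. CREB m1, at 27.4% and 37.3%, missed the limit with a Δmet of −9.97. NRF1 m2 was not lower in run 4, with 54.0% for WT and 44.6% for Sc, and was 84.2% and 85.9% in run 5, whereas NRF1 m1 was 16.1% and 37.7% in run 4 and 78.9% and 82.0% in run 5.

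In ESC +SssI, 3 of the 7 motif CpGs were lower (all motifs 50%): E2F1 m2 at 55.1% with WT and 87.0% with Sc, ETS m1 at 76.6% and 94.8%, and N-MYC m1 at 19.6% and 50.9%. CREB m1 was higher, at 50% and 36.2% (1 of 7, all motifs 27.8%). NRF1 m1 was 67.5% and 69.3%, and NRF1 m2 91.8% and 82.9%, so that both NRF1 motif CpGs were mostly methylated with either sequence when the plasmid had been premethylated. E2F1 m1 was 67.0% and 67.3%, next to an m2 that differed by −31.9 points. These E2F1 levels mix runs. In run 4, m1 was 55.5% of 384 WT reads and 100% of 40 Sc reads. In run 5 it was 93.4% of 167 WT reads and 65.5% of 740 Sc reads. For m2 the levels with WT and Sc were 39.8% and 95% in run 4, and 89.8% and 86.6% in run 5.

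N-MYC m1 was the only motif CpG of the 7 called lower in all 4 wild-type pools. In NP −SssI, 3 of the 7 motif CpGs were lower (all motifs 44.4%) and 0 higher (11.1%): N-MYC m1 at 35.9% of 39 reads with WT and 91.2% of 1459 with Sc, E2F1 m1 at 81.6% and 92.3%, and E2F1 m2 at 76.8% and 100%. In NP +SssI only N-MYC m1 was lower (1 of 7, all motifs 33.3%), at 38.6% of 874 reads against 84.3% of 1342 reads (adjusted p = 6.70e-109), while 0 were higher (0%). Around this CpG the N-MYC WT fragment as a whole was 88.6% methylated. Its 3 WT runs in NP +SssI gave 38.5%, 42.4% and 34.4% (runs 2, 9 and 10), while the Sc reads came from other runs, at 87.4% in run 7, 48.0% in run 1 and 35.7% in run 11.

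Runs of ESC −SssI were uneven at N-MYC m1. There 0 of 34 WT reads in run 1 and 0 of 24 in run 5 were methylated, which allows shares of up to 8.82% and 12.5%, while run 6 had 44.6% with WT and 50.8% with Sc. Run 4 of ESC +SssI held both fragments, with 20% for WT and 45.0% for Sc, and run 7 of NP −SssI had 29.4% and 90.0%. The same CpG in TET TKO +SssI was 99.1% of 227 reads with WT and 83.9% of 411 reads with Sc, the 1 of 7 called higher (all motifs 11.1%). In runs 9, 10 and 11 of that pool WT was at 100%, 98.6% and 100% and Sc at 100%, 73.9% and 98.9%, so that the lower Sc level came from run 10. Its Δmet there was 46.6 points above that in ESC +SssI (SE 6.04, adjusted p = 6.43e-14), whereas NP +SssI and NP −SssI differed by 9.54 points (adjusted p = 0.281).

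In TET TKO +SssI, 1 of the 7 motif CpGs was lower, ETS m1 at 80.2% with WT and 98.0% with Sc, and it was also the only 1 of the 18 (5.56%). NRF1 m1 and m2 were both 99.6% with WT, beside 90.8% and 95.6% with Sc. E2F1 m2 was 86.2% and 92.2%, and CREB m1 97.0% and 95.5%. In NP −SssI the NRF1 motif CpGs were 99.1% and 99.8% with WT, beside 94.2% and 94.9%.

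Between pools, the Δmet of single CpGs often differed, as it did for all motifs. The Wald test found a difference at 101 of the 145 CpGs between the ESC pools (all motifs 62.5%), at 78 between the NP pools (62.8%), at 109 between NP −SssI and ESC −SssI (71.3%), at 96 between NP +SssI and ESC +SssI (64.3%) and at 87 between TET TKO +SssI and ESC +SssI (67.9%). By fragment mean, the numbers were 4 of 6 motifs (53.8% of all 26), 1 (42.3%), 3 (50%), 3 (53.8%) and 3 (53.8%) in the same order. ESC +SssI enters 3 of these comparisons and ESC −SssI, NP −SssI and NP +SssI 2 each, so they are not independent of each other.

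RNA-seq libraries were used to ask whether the genes of the factors were expressed where their motifs were tested. ESC libraries held 20570050 to 23976914 reads in genes, NP libraries 20519702 to 22132988 and TET TKO libraries 80704741 to 93210102. The markers followed the ESC and NP labels, since all 7 ESC markers were lower in NPs, with Pou5f1 at a mean of 393 RPKM in ESCs and 1.09 in NPs, and 6 of 7 NP markers were higher, Tubb3 being the exception (edgeR adjusted p = 0.103). The labels do not say that the 3 libraries of a group are separate cultures, so p-values measure the spread between libraries. Calls needed an edgeR quasi-likelihood adjusted p under 0.001 and a 3-fold change, which 12.4% of tested genes met as higher and 9.98% as lower in NPs. Of the 7 markers of other cell types, 3 of 6 tested were higher in NPs, namely Sox17 (mean 3.83 RPKM), Foxa2 (10.1) and Olig2 (4.75), and the summed RPKM of the 7 was 1.49 to 3.06 in ESCs, 18.4 to 24.7 in NPs and 1.73 to 1.87 in TET TKO ESCs, with Gfap at means of 0.0773 to 0.346 RPKM. Their part in the results was not tested.

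In the TET TKO libraries 1 of 7 ESC markers was lower, Zfp42, at a mean of 50.6 RPKM against 304 in ESCs, where 1.29% of genes were called lower and 0.847% higher. Tet1 was at 13.2, 16.1 and 11.3 RPKM in these libraries, beside 65.9, 60.8 and 68.5 in ESCs (edgeR log2 fold change −2.38, adjusted p = 7.02e-05). Tet2 was at 2.42, 2.70 and 2.32, beside 20.5, 20.3 and 16.1 (−3.05, adjusted p = 1.87e-05). Tet3 was low in both, at 0.474 to 0.617 and 0.631 to 0.770 RPKM, and was not tested. Counts are per gene and include exons that a deletion may leave in place. In NPs Tet1 and Tet2 were lower than in ESCs as well, at means of 4.17 and 3.30 RPKM, and Tet3 was higher, at 7.82.

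Of the genes that give the motifs their names, Ets1 was under 1 RPKM in all ESC libraries, and the others were above 3 RPKM in every library. Nrf1 (chr6:30047988-30153458, GRCm38) stood at 8.02, 8.39 and 7.69 RPKM in ESCs, 8.17, 7.35 and 7.50 in NPs and 9.15, 9.26 and 7.28 in TET TKO ESCs, so that the groups overlapped. Its edgeR log2 fold change was −0.08 in NPs (SE 0.10, adjusted p = 0.517) and −0.03 in TET TKO ESCs (adjusted p = 0.875). E2f1 (chr2:154559407-154569892) was at 18.5, 18.3 and 22.4 RPKM in ESCs, 28.8, 21.8 and 25.9 in NPs and 23.3, 18.3 and 24.9 in TET TKO ESCs, again without a call (log2 fold change 0.36 and 0.05, edgeR adjusted p = 0.0545 and 0.815). In bulk RNA fewer cells of a type and less RNA per cell cannot be told apart.

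Mycn (chr12:12936093-12941914) was at 55.7, 55.3 and 66.2 RPKM in ESCs, 50.5, 54.5 and 49.9 in NPs and 96.5, 104 and 44.6 in TET TKO ESCs, of which the last library lay below all ESC libraries and the others above them. Neither contrast was called (edgeR adjusted p = 0.124 and 0.377). Creb1 (chr1:64532645-64604548) was at 3.63, 3.66 and 3.08 RPKM in ESCs and 7.09, 6.51 and 9.14 in NPs, every NP library above every ESC library, and its log2 fold change of 1.12 (SE 0.16, edgeR adjusted p = 4.04e-04) was short of the 3-fold limit. In TET TKO ESCs it was at 4.64, 5.75 and 5.15. The NFY subunit genes were at means of 12.2 (Nfya), 16.9 (Nfyb) and 10.7 (Nfyc) RPKM in ESCs and none was called in either contrast (edgeR adjusted p of 0.0176 or higher).

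The wider lists held the factors that could share each motif, 41 genes of which 39 were tested. In NPs 2 were higher and 5 lower. Ets1 (chr9:32636221-32757820), a founding member of the ETS family, was higher, from 0.588, 0.783 and 0.509 RPKM in ESCs to 2.21, 4.05 and 1.76 (log2 fold change 2.08, SE 0.33, edgeR adjusted p = 7.10e-04). In TET TKO ESCs it was at 1.30, 1.06 and 1.60 RPKM, and the call in NPs was one that leaving out any ESC library or the first NP library removed (log2 fold change 1.93 to 2.26, edgeR adjusted p = 0.00179 to 0.00483). Mycl, a MYC family member, was higher, from 5.40, 4.67 and 6.66 to 72.2, 38.1 and 48.1 RPKM (3.23, adjusted p = 1.52e-05 by edgeR).

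The genes lower in NPs were 4 ETS family members and 1 CREB relative. Etv5 fell from 55.5, 60.0 and 50.1 RPKM to 1.14, 2.74 and 1.19 (log2 fold change −5.04, SE 0.34, edgeR adjusted p = 6.69e-06), and Etv4 from 37.9, 40.9 and 28.7 to 3.64, 5.47 and 1.75 (−3.32). Gabpa, a subunit of GABP, fell from 38.3, 39.7 and 36.9 to 10.6, 13.3 and 14.2 RPKM (−1.61), and Erf, an ETS repressor, from 69.7, 75.7 and 50.6 to 22.6, 22.9 and 16.7 (−1.67). Atf1, which binds the same element as CREB, fell from 20.9, 22.8 and 18.4 to 4.05, 6.15 and 7.12 (−1.85, adjusted p = 1.30e-04 by edgeR). In all of these the ESC and NP libraries did not overlap. Gabpa fell short of 3-fold without the first NP library (log2 fold change −1.51), and Erf without the second ESC library (−1.56) or the third NP library (−1.55).

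None of the 39 genes (0) was called higher in TET TKO ESCs and 0 lower by edgeR, while 10 were higher and 10 lower at an unadjusted p under 0.05. The share of all tested genes at that unadjusted limit was not computed, so these counts are not read as a result about the lists. DESeq2 called 1 gene, Etv1, lower. Its level was 1.30, 1.37 and 0.921 RPKM in ESCs and 0.442, 0.516 and 0.154 in TET TKO ESCs (edgeR log2 fold change −1.81, adjusted p = 0.0150).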

How the data were processed

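Methylation was measured by targeted bisulfite sequencing of pooled FR1 insertions in 5 pools, and expression by RNA-seq. Per the labels and the study's methods, the authors trimmed the bisulfite amplicon reads (Trim Galore 0.4.4), removed duplicates by unique molecular tags, assigned reads to constructs by their motif and barcodes, aligned them with Bismark 0.20.0, and removed reads with poor non-CG conversion except in the TET TKO pool. The deposited counts give, for every CpG of a construct in each run, the reads left and how many of them were methylated. For ESC −SssI and NP +SssI, 2 samples, of which 1 was read by capillary sequencing, share a table, and which run belongs to which is not given in the sources used here. The deposited gene counts were made by the authors with Trimmomatic 0.38, STAR 2.6.1b and featureCounts without strand on GRCm38. Some versions come from the submitters' processing notes.

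Here counts were summed over runs, and CpGs with at least 10 reads in WT and Sc were tested by Fisher's exact test in scipy 1.17.1 (Python 3.11.15), adjusted by Benjamini-Hochberg over all 616 CpGs of a pool. Differences between pools were tested by two-sided Wald tests, per CpG over 616 and per fragment mean over 26 motifs, the latter with the binomial variance of the median read number. Within-run values were combined by the Mantel-Haenszel method. Runs were also compared by a chi-square test of their upstream read numbers per construct, which uses no methylation values. This test did not tell apart runs 1, 2 and 5 of ESC −SssI or runs 2, 9 and 10 of NP −SssI. Nor did it tell apart runs 2 and 9 of NP +SssI. The lowest chi-square p among these pairs was 0.0742, and a test that finds no difference does not show that runs are the same. These runs were summed like the others, and an alternative counted them once. Gene counts were tested by edgeR 4.0.16 (R 4.3.3; quasi-likelihood, TMM) on genes of at least 1 RPKM in 1 or more libraries, separately for each contrast, and 51633 of 51912 genes had a symbol. DESeq2 1.42.0 was an alternative, as were other filters, references, limits, and leaving out each run or library. Both procedures were tested on simulated data. The simulated methylation reads held no differences between runs, so the mixing of runs described above was not covered. Depths stand in the text and limit each value. Motifs and gene lists were chosen with earlier results of these data known. The named CpGs are the extremes of each fragment, the ends of HMRs and the motif CpGs. The named genes are those that give the motifs their names and the list genes called. Libraries of single OCT4SOX2 lines and of knockdowns hold none of the 12 constructs and were not used here, nor were the pooled percentages, which repeat the counts.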

Additional observations from a re-analysis of the deposited data

Results flagged for a closer look

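The fragments below had a Δmet that differed between 2 pools by a two-sided Wald test of the difference itself, adjusted over 26 motifs. Values are differences of Δmet in percentage points by summed reads, then within runs where both pools had shared runs. Comparisons share pools, and no explanation was tested.

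Between ESC +SssI and ESC −SssI, the difference was 43.0 for NRF1 (within runs 18.8), −38.5 for NFY (−13.2), −48.0 for N-MYC (−35.5) and 25.4 for CREB (13.9). The within-run adjusted p was 0.0391 for NRF1 and 0.00340 for N-MYC, but 0.351 for NFY and 0.0916 for CREB. Between NP +SssI and NP −SssI it was −18.4 for CREB (−20.5 within runs, adjusted p = 0.00266).

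Between NP −SssI and ESC −SssI, the difference was 47.1 for NRF1 (within runs 24.0), −31.9 for NFY (1.43, the opposite sign) and −47.3 for N-MYC (−45.0). Between NP +SssI and ESC +SssI it was 26.1 for E2F1 (within runs −47.3, the opposite sign), 20.6 for ETS (12.6, adjusted p = 0.0617) and −42.2 for CREB (−39.4). Between TET TKO +SssI and ESC +SssI it was 17.5 for E2F1 (within runs −1.94), 35.3 for N-MYC (23.7) and −24.2 for CREB (−18.6, adjusted p = 0.0541). In the last comparison genotype and strain cannot be told apart.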

How the results depend on the processing

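Calls changed with depth and with runs. With at least 50 reads, 27 CpGs were higher in ESC −SssI, and 63 and 62 CpGs differed from ESC −SssI in ESC +SssI and NP −SssI. Within runs, 19 CpGs were lower in NP −SssI, where no E2F1 CpG could be tested, and 1 motif had an HMR in ESC +SssI. Counting alike runs once left 15 higher in NP −SssI and gave 0.117 for E2F1 in ESC −SssI.

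Against the mean of all Sc fragments, the CpGs lower were 15 in NP −SssI and 22 in TET TKO +SssI. The CpGs higher were 31 in ESC −SssI, 9 in ESC +SssI, 5 in NP −SssI and 11 in NP +SssI, and HMRs were 2 in NP −SssI, 1 in NP +SssI and 1 in TET TKO +SssI. There NFY in ESC −SssI was −1.35 and CREB in ESC +SssI −4.23. Against the fragment without a motif, 18 CpGs were lower and 8 higher in NP −SssI, 23 were lower in TET TKO +SssI, and 1 HMR each was present in NP +SssI and TET TKO +SssI.

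With a limit of 20 points, the CpGs lower were 11, 17 and 21 in NP −SssI, NP +SssI and TET TKO +SssI. The CpGs higher were 20, 10, 6 and 17 in ESC +SssI, NP −SssI, NP +SssI and TET TKO +SssI, and HMRs were 1, 0, 1 and 1 in ESC −SssI, NP −SssI, NP +SssI and TET TKO +SssI.

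Leaving out each run in turn gave 40 to 67 CpGs lower, 29 to 56 higher and 1 to 4 HMRs in ESC −SssI, 19 to 57 lower and 0 to 4 HMRs in ESC +SssI, 19 to 29 lower and 0 to 1 HMRs in NP −SssI, 1 to 3 HMRs in NP +SssI, and 5 to 38 lower, 7 to 28 higher and 0 to 2 HMRs in TET TKO +SssI, where run 10 held the upstream reads. E2F1 ranged from −27.6 (without run 3) to 0.338 (without run 1) in ESC −SssI and from −50.5 (without run 5) to 1.58 (without run 4) in ESC +SssI. Differences between pools that passed the test in at least 1 fit and changed sign within runs were 26.9 (E2F1, ESC pools), 1.43 (NFY, NP −SssI against ESC −SssI), −7.37 (CREB, the same pools, adjusted p = 0.0406), −47.3 (E2F1, NP +SssI against ESC +SssI) and −1.94 (E2F1, TET TKO +SssI against ESC +SssI). ETS (ESC pools, −9.71 to 3.78) and NFY (NP +SssI against ESC +SssI, −3.82 to 3.55) changed sign and passed in neither. Of 442 alternative fragment values, 387 stayed within the counting error. That count includes alternatives that could hardly move a value, such as leaving out a run with few or no reads of the fragment. It is therefore not read as a measure of stability. The causes of the changes were not tested.

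In RNA-seq, library sizes alone left 3 genes lower in NPs (Gabpa and Erf lost), no fold limit gave 8 higher, and leaving out a library gave 1 to 2 higher. DESeq2 and no filter each called 1 gene lower in TET TKO ESCs. Same-numbered libraries were not taken as pairs, since in neither contrast did all 3 correlate above 0.1 (−0.0628, 0.0146 and −0.135 for NPs, −0.0887, 0.338 and 0.236 for TET TKO ESCs, where replicates 2 and 3 correlated best with their own number), and a replicate block left 2 higher and 5 lower in NPs and 0 in TET TKO ESCs.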

Other observations

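Among the genes of the 6 motif lists, 8 passed the edgeR adjusted p limit of 0.001 in NPs without reaching a 3-fold change. The share of all tested genes that did so was not computed, so the count is not read as a result about the lists. Of these 8 list genes, 6 rose, E2f2 (log2 fold change 1.09), E2f6 (1.09), Ets2 (0.90), Elk4 (0.85), Elf2 (0.91) and Creb1 (1.12), and Elk1 and Max, the dimer partner of N-MYC, fell, with log2 fold changes of −1.05 and −0.75. In TET TKO ESCs no list gene passed that limit, and Tfdp1, a dimer partner of E2F1, was at 43.6, 63.3 and 41.0 RPKM beside 20.4, 22.4 and 18.6 in ESCs (log2 fold change 1.15, SE 0.18, edgeR adjusted p = 0.00284). Tfdp1 was named after its values were seen.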
